A study of Rattus norvegicus with 6 samples.

Results

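The miR-204 and miR-211 family of rat hippocampus is described here with the channel genes that host it. It was taken by name: every row of the miRNA tables named miR-204 or miR-211, with any arm, and the rows of Trpm3 (host of miR-204) and Trpm1 (host of miR-211) in the mRNA tables. That gave 6 rows, 4 of the 765 mature miRNAs and 2 of the 35362 gene symbols. The family was picked with the ratios of the miR-204 arms already known, so all values below are descriptions and none is tested. Sprague-Dawley rats of the treated group received B[a]P, the combustion product benzo[a]pyrene, in corn oil by daily oral gavage at 2.0 mg/kg. Control rats had corn oil alone by the same route. The labels give an age of 7 weeks for every library and, in RNA-seq alone, a gavage lasting 7 weeks, without saying which age was meant, how many animals were used or whether tissue was pooled. Each group had 1 RNA-seq library and 1 miRNA-seq library of hippocampus, so the differences below lack any replicate check and compare libraries rather than treatments. In what follows, "under B[a]P" and "under corn oil" name the library of the treated group and that of the control group.

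miR-204 and miR-211 are copies of one ancestral miRNA that lie in introns of TRPM channel genes and share the seed with which a miRNA pairs to its targets. miR-204 is known for high levels in the choroid plexus, the epithelium that makes cerebrospinal fluid, and in retinal pigment epithelium. miR-211 is known from melanocytes, where the factor MITF drives it together with TRPM1. TRPM3 is a calcium-permeable cation channel opened by heat and by the neurosteroid pregnenolone sulfate, and TRPM1 is the channel of retinal ON bipolar cells.

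The mature sequences from RefSeq (GRCr8) are printed because the family is defined by them and because the counts of its 5p arms rest on a single base. Capitals mark the seed, bases 2 to 8 from the 5′ end.
rno-miR-204-5p: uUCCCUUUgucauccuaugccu
rno-miR-211-5p: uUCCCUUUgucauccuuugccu
rno-miR-204-3p: gCUGGGAAggcaaagggacguu
rno-miR-211-3p: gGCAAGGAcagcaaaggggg
Both 5p arms carry the seed UCCCUUU, which no other of the 693 mature rat miRNAs in the RefSeq table has. They differ at 1 of 22 bases, A17U, counted from 1 at the 5′ end with the base of miR-204-5p first, so the difference lies outside the seed. Each 3p arm has a seed of its own, CUGGGAA in miR-204-3p and GCAAGGA in miR-211-3p, and the longest run shared by the 3p arms is 8 bases. The 5p arm of miR-204 lies at chr1:229743493-229743514 and that of miR-211 at chr1:127189353-127189374, both on the plus strand of GRCr8. Each hairpin lies within the span of its host gene on chromosome 1. In the hairpins, whose capitals mark both mature arms, the 5p arms are nearly identical while the flanks and loops differ.
Mir204: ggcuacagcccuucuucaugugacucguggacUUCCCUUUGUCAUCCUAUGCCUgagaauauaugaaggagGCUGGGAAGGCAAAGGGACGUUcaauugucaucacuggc
Mir211: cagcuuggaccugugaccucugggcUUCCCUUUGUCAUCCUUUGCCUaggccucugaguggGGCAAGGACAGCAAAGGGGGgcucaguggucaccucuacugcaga

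The depth of the miRNA libraries could be read from their values, which are RPM, reads scaled to a fixed library total. All were whole multiples of 1 step, which gave totals of 14360375 reads in the B[a]P library and 16266392 in the control library. Reads assigned to miRNAs made up 46.9% and 37.1% of them. No value under 10 reads was listed, so a value of 0 need not mean that no read was found. Over the 332 miRNAs at 10 RPM or more in either library, the median log2 ratio of the B[a]P over the control library was 0.36 on the log2(RPM + 1) scale, so ratios are also given relative to that median. The mRNA tables give FPKM, fragments scaled to gene length and library size, a unit taken from the values because no label states it. Over 13261 genes with at least 1 FPKM in one library or the other, their median log2 ratio was 0.09 on the log2(FPKM + 1) scale. The median of plain ratios, over genes past that floor in both libraries, was 1.07. Past 2-fold means, throughout, a log2 ratio of at least 1 in size with the pseudocount of 1, among features above the floor.

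The libraries of the assays labelled B[a]P differed from their controls in opposite directions for the choroid plexus, whose messenger RNAs were far lower and whose known miRNA, miR-204, was higher, with values given below. Whether the labels of one assay were exchanged between its libraries, or the tissue samples differed in how much choroid plexus they held, was not tested. An exchange in one assay would turn round every direction given for that assay, and with it each contrast between miRNA and messenger RNA.

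The 5p arm of miR-204, its guide strand, was several times higher in the B[a]P library. rno-miR-204-5p had 42386 reads there, or 2952 RPM, against 6959 reads, or 428 RPM, in the control library. The ratio was 6.90 (95% interval 6.73 to 7.08, an exact conditional binomial interval that covers counting error only). The log2 ratio was 2.78, or 2.42 relative to the median miRNA. It was the fourth highest ratio among the 332 miRNAs. As a share of all miRNA reads, miR-204-5p took 0.629% in the B[a]P library and 0.115% in the control library, a ratio of 5.46 (95% interval 5.32 to 5.60).

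That difference moved miR-204-5p among the abundant miRNAs of the tissue. It ranked 34 by level in the B[a]P library, between miR-103-3p at 3061 RPM and miR-99b-5p at 2783 RPM, and 74 in the control library, between miR-543-3p at 429 RPM and miR-26b-5p at 393 RPM. These 4 neighbours had ratios between 1.26 and 1.52. In the control library the reads of miR-204-5p and miR-543-3p, 6959 and 6977, differed by less than counting error. miR-124-3p, a neuronal miRNA chosen after its values were seen, stood at 0.502% of miRNA reads in the B[a]P library and 0.506% in the control library, below miR-204-5p in the first and above it in the second.

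The rarer strand showed a like ratio. rno-miR-204-3p had 215 reads, or 14.97 RPM, in the B[a]P library and 36 reads, or 2.21 RPM, in the control library. The ratio was 6.76 (95% interval 4.74 to 9.92). Its log2 ratio of 2.31, or 1.95 relative to the median, was the sixth highest. Thus both family members above the 10 RPM floor passed 2-fold upward, as 3.92% of the 332 miRNAs above it did. That share is background only, since the family was picked with these ratios in view. In addition, miR-204-3p reached the floor through the B[a]P library alone, so the floor itself favoured a higher ratio for it. The other members, of miR-211, lay under the floor.

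The balance of the arms was alike in both libraries. Reads of miR-204-5p outnumbered those of miR-204-3p by 197 to 1 in the B[a]P library (95% interval 172 to 226) and by 193 to 1 in the control library (95% interval 139 to 276). The log2 change of the arm ratio between the libraries was 0.03. Among 127 miRNAs with both arms listed in both libraries the change ran from -2.50 to 0.91, with a median of -0.03, and 115 stayed within 0.5. The arm ratio divides out the library total, so no scaling of the tables alters it.

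miR-211 was rare. miR-211-5p had 119 reads, or 8.29 RPM, in the B[a]P library and 61 reads, or 3.75 RPM, in the control library, under the 10 RPM floor in both. The ratio was 2.21 (95% interval 1.61 to 3.06), while the log2 ratio with its pseudocount was 0.97, or 0.61 relative to the median. The plain ratio exceeds 2 and the log2 ratio does not reach 1. That log2 ratio is 1.12 with a pseudocount of 0.1, and 0.41 with 10, alternatives chosen after seeing the data. Its share of miRNA reads differed by a ratio of 1.75 (95% interval 1.27 to 2.42). miR-211-3p was listed at 0 in both libraries.

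**Figure D1:**
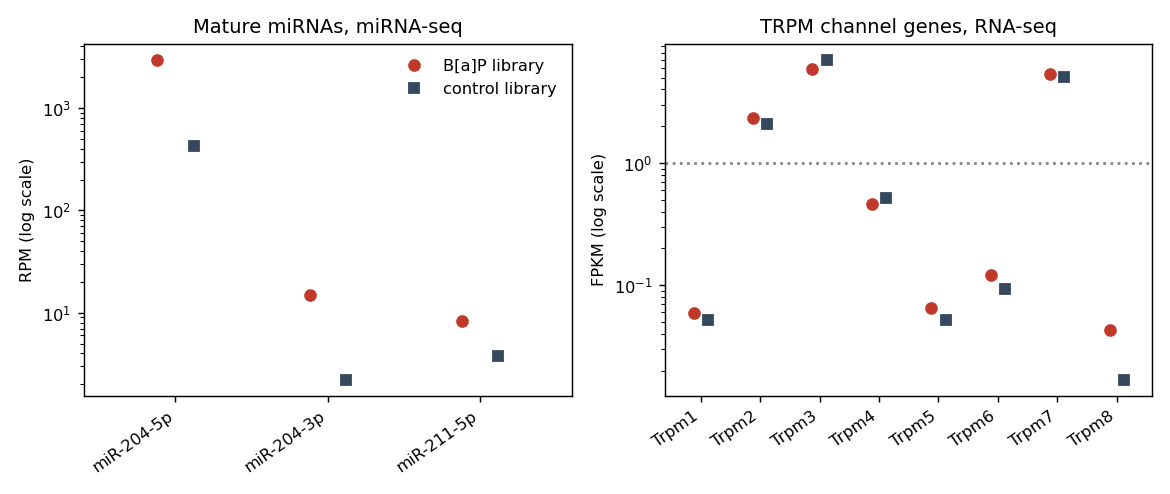
Levels of the miR-204 and miR-211 arms (left, RPM, log scale) and of the 8 TRPM channel genes (right, FPKM, log scale, with the 1 FPKM floor dotted) in the B[a]P library (circles) and the control library (squares), 1 library each. miR-204-5p and miR-204-3p stand well apart between the libraries, at 2952 against 428 RPM and 14.97 against 2.21 RPM, while Trpm3 stands at 5.91 against 6.97 FPKM; miR-211-3p, listed at 0, is not drawn.

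The difference of a single base makes the 5p arms worth setting side by side. For every 1000 reads of miR-204-5p there were 2.81 reads of miR-211-5p in the B[a]P library (95% interval 2.33 to 3.36) and 8.77 in the control library (95% interval 6.70 to 11.3). The 5p arms therefore did not keep a fixed ratio, and the intervals, which cover counting error only, did not overlap. The ratio of miR-204-5p was known when the family was picked and enters these values. The place of this pair among those below is thus a description only. Whether some reads of one arm were counted as the other was not tested. The table holds 22 pairs of miRNAs of equal length that differ by 1 base, and 14 of them had both members listed in both libraries. In the other 13 the rarer miRNA per 1000 reads of its partner changed between the libraries by ratios of 0.784 to 1.29, compared with 0.320 for miR-211-5p and miR-204-5p. The rarest partner after miR-211-5p was miR-29c-3p, named after its values were seen, at 14.2 reads per 1000 of miR-29a-3p in the B[a]P library and 14.6 in the control library.

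**Figure D2:**
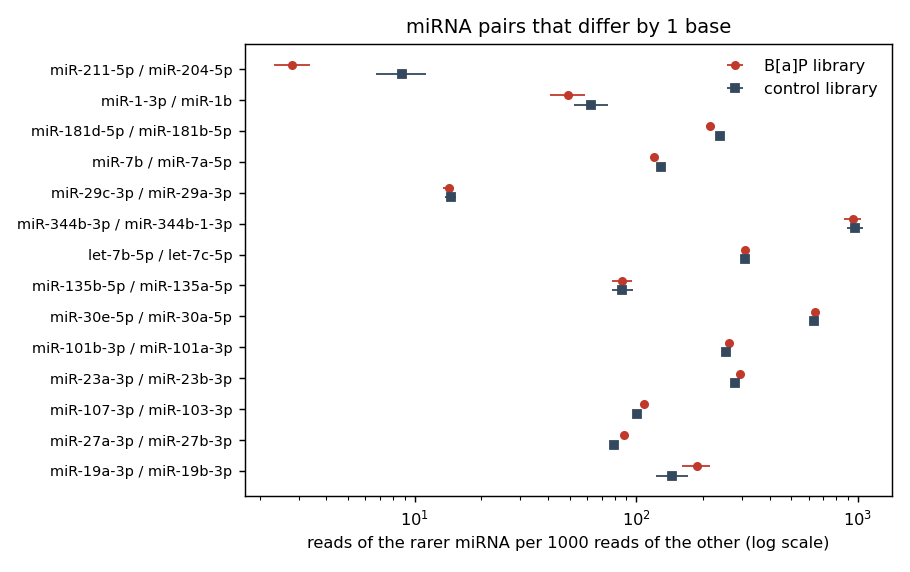
Reads of the rarer miRNA per 1000 reads of its partner (log scale) for the 14 pairs that differ by 1 base, in the B[a]P library (circles) and the control library (squares), with exact 95% intervals for counting error. miR-211-5p per 1000 miR-204-5p stands at 2.81 in the B[a]P library and 8.77 in the control library, while in the other 13 pairs the libraries differ by ratios of 0.784 to 1.29.

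The miRNAs whose log2 ratio lay nearest to that of miR-204-5p, among those at 10 RPM or more, came from few loci. Distances are on the log2 scale, over the same pair of libraries. miR-34b-5p was nearest, at a distance of 0.34, with 562 reads in the B[a]P library and 104 in the control library. Next came miR-204-3p at 0.47 and miR-1912-3p, from an intron of the serotonin receptor gene Htr2c, at 0.72, with 268 reads in the B[a]P library and 12 in the control library. miR-34c-5p lay at 0.72, with 28429 reads in the B[a]P library and 7698 in the control library, and miR-34c-3p at 0.79. All of these but miR-34c-5p reached 10 RPM through the B[a]P library alone, so the floor favoured higher ratios among them. miR-34b and miR-34c share a primary transcript and are known from ciliated epithelia.

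**Figure D3:**
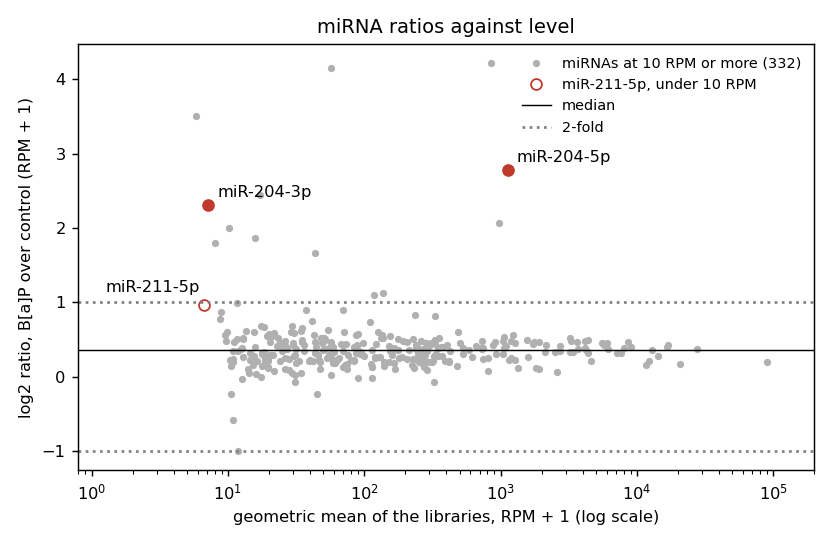
Log2 ratio of the B[a]P over the control library against level for the 332 miRNAs at 10 RPM or more in either library, with miR-204-5p and miR-204-3p filled in colour and miR-211-5p, under that floor, as an open circle. The solid line marks the median of 0.36 and the dotted lines 2-fold; miR-204-5p at 2.78 and miR-204-3p at 2.31 lie above nearly all others, and miR-211-5p at 0.97 lies under the 2-fold line.

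The host of miR-204 was slightly lower in the library labelled B[a]P of the RNA-seq, while miR-204 was higher in that of the miRNA-seq. Trpm3 was at 5.91 FPKM under B[a]P and 6.97 under corn oil, a ratio of 0.848 and a log2 ratio of -0.21, or -0.29 relative to the median gene. It did not pass 2-fold, which 0.52% of the 13261 genes did downward and 0.151% upward. A lower ratio was found for 689 genes, 5.20% of those above the floor. Mature miRNA and host messenger RNA were measured in separate libraries, and the labels do not say whether both came from the same animals. With the labels of one assay exchanged, host and miRNA would differ in the same direction.

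Trpm1 was barely detected. It stood at 0.0596 FPKM under B[a]P and 0.0518 under corn oil, far under the 1 FPKM floor, with a ratio of 1.15. If whole fragments were counted, the smallest numbers that give this ratio are 38 fragments in the B[a]P library and 35 in the control library. At those numbers the 95% interval of the ratio is 0.707 to 1.88, and it covers counting error only. Multiples of these numbers would give the same ratio with a narrower interval. Neither host is listed in the lncRNA tables.

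Within the TRPM family, Trpm3 was the most abundant member per length in both libraries, and the order of the 8 genes by FPKM was the same. Trpm7, which encodes a channel fused to a kinase and known for magnesium uptake, followed at 5.34 FPKM under B[a]P and 5.02 under corn oil. Trpm2, the channel opened by ADP-ribose and oxidative stress, was at 2.34 FPKM under B[a]P and 2.10 under corn oil. Trpm3 was the lowest in ratio of these 3, the members above the floor, and none passed 2-fold, against 0.671% of all genes either way.

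The rest of the family was low. Trpm4, a calcium-activated channel for monovalent cations, was at 0.464 FPKM under B[a]P and 0.520 under corn oil. Trpm6, the epithelial magnesium channel, was at 0.122 FPKM under B[a]P and 0.0936 under corn oil. Trpm5, known from taste cells, was at 0.0651 FPKM under B[a]P and 0.0520 under corn oil, next to Trpm1 in the order. Trpm8, the cold and menthol receptor, was lowest at 0.0434 FPKM under B[a]P and 0.0169 under corn oil. The smallest fragment numbers that give its ratio are 17 in the B[a]P library and 7 in the control library. Since each group had 1 library, the spread that would tell neighbours in this order apart is unknown.

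Of 20 other TRP channel genes, 10 were above the floor, and none of them passed 2-fold. Their median log2 ratio was 0.11, beside 0.09 for all genes, and 8 lay above the median gene and 2 below it. The largest differences were Trpv6, an epithelial calcium channel gene, at 4.84 FPKM under B[a]P and 3.87 under corn oil, the canonical channel gene Trpc6 at 8.16 against 6.98 FPKM, and Trpc5 at 12.8 against 11.4 FPKM. Trpv4, an osmosensitive channel gene that the choroid plexus is known to express, was under the floor at 0.130 FPKM under B[a]P and 0.880 under corn oil. It was chosen after its values were seen.

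Genes next to the hosts were examined in the RefSeq gene order of GRCr8. Of 10 genes annotated within the span of Trpm3, Mir204 among them, the mRNA tables list 1, the predicted LOC102552001, which RefSeq classes as a long noncoding RNA. It was at 0.352 FPKM under B[a]P and 0.871 under corn oil, a ratio of 0.404 under the floor. LOC102552001 also has 4 lines in the lncRNA tables, whose values were not compared here. Whether the authors' counting separates its reads from those of Trpm3 introns was not given. The protein-coding genes next listed on either side had ratios of 1.01 or more, beside 1.07 for the median gene. Gda, the guanine deaminase gene, was at 59.1 FPKM under B[a]P and 50.8 under corn oil, and Abhd17b, which encodes a depalmitoylating enzyme, at 16.3 against 16.1 FPKM. On the other side, the transcription factor gene Klf9 was at 46.2 FPKM under B[a]P and 38.7 under corn oil, and the chromosome maintenance gene Smc5 at 7.41 against 6.51 FPKM.

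The neighbours of Trpm1 were all above the floor, and Trpm1 was not. Mtmr10, a myotubularin-related gene, was at 6.90 FPKM under B[a]P and 6.57 under corn oil. The repair nuclease gene Fan1 was at 2.49 against 2.24 FPKM. Otud7a, a deubiquitinase gene, was at 10.3 against 9.71 FPKM, and the transcription factor gene Klf13 at 12.8 against 13.3 FPKM.

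How a host gene and its intronic miRNA differed was compared over 55 pairs listed from background knowledge, of which 53 were present and 47, from 40 host genes, were above both floors. The log2 ratio of miR-204-5p exceeded that of Trpm3 by 2.99. Larger gaps were found for miRNAs of Htr2c, which was at 19.5 FPKM under B[a]P and 29.0 under corn oil. Its miR-1298 exceeded it by 4.76, miR-448-3p by 4.71 and miR-1912-3p by 4.05. The other 43 pairs had gaps from -0.05 to 1.62 with a median of 0.31, while the medians of the miRNA and mRNA tables themselves differed by 0.27. The highest of these was miR-152-3p, at 172 RPM in the B[a]P library and 79.9 RPM in the control library, over its host Copz2, a coatomer subunit gene, at 1.01 against 1.87 FPKM.

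Trpm3 and miR-204-5p were among 22 of the 47 pairs in which the host lay below the median gene and the miRNA above the median miRNA. How many pairs would lie so with no relation between host and miRNA was not worked out, so the count is a description only. Across the 47 pairs, Pearson's r between the log2 ratios of miRNA and host was -0.80 and Spearman's rho -0.53. Without Trpm3 and Htr2c the values were -0.51 and -0.39 over 43 pairs. With the labels of one assay exchanged, the sign of each of these values would turn round. In the 22 pairs host and miRNA would then lie on the same side, and pairs now on the same side would lie on opposite sides. The values describe the libraries only, since all pairs share them and some miRNAs and hosts enter several times. The ratio of miR-204-5p was known when the family was picked. miR-1912-3p and miR-15b-5p reached 10 RPM through the B[a]P library alone, so the floor favoured higher ratios for them. The 43 pairs still hold miR-152-3p with Copz2, at log2 ratios of 1.10 for the miRNA and -0.51 for the host. The pair of Trpm1 and miR-211-5p, under both floors, had log2 ratios of 0.01 for the gene and 0.97 for the miRNA.

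**Figure D4:**
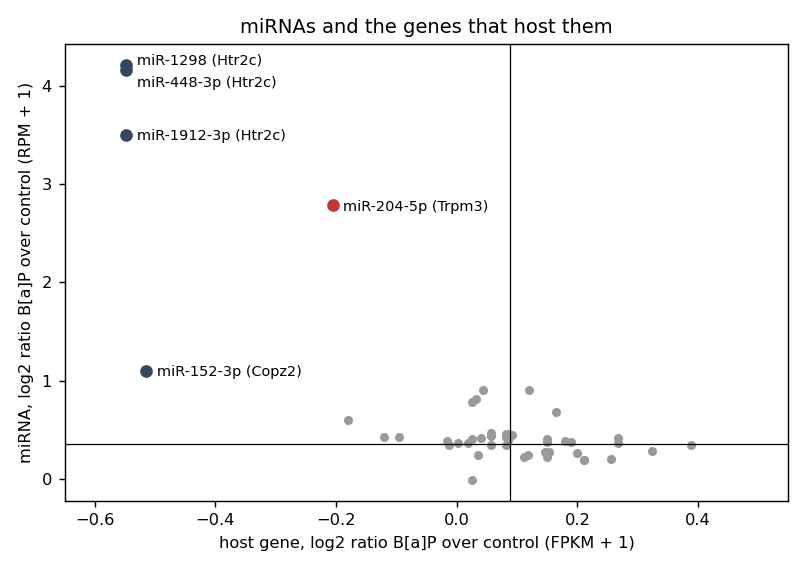
Log2 ratio of the B[a]P over the control library for intronic miRNAs (vertical, RPM + 1) against that of their host genes (horizontal, FPKM + 1), 1 point for each of 47 pairs above both floors, with lines at the table medians of 0.36 and 0.09. miR-204-5p with Trpm3 stands at 2.78 and -0.21, nearer to the 3 pairs of Htr2c than to most other pairs.

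Markers of the choroid plexus, known for miR-204, were far from level between the libraries. Of 16 choroid plexus genes, 14 were above the floor, all 14 lay below the median gene and 12 passed 2-fold downward, as 0.52% of all genes did. Only Ttr, Folr1, Clic6 and Calml4 were at 1 FPKM or more in both libraries. The others of the 14 reached the floor through the control library alone, so the floor favoured lower ratios among them. Prlr, the prolactin receptor gene, fell just short with the pseudocount, at a log2 ratio of -0.99, although its plain ratio was 0.0634, at 0.0715 FPKM under B[a]P and 1.13 under corn oil. Calml4, named after its values were seen, did not pass either, at a log2 ratio of -0.86, with 6.07 FPKM under B[a]P and 11.8 under corn oil. The summed level of all 16 genes was 72.8 FPKM under B[a]P and 3459.5 under corn oil. The carrier protein gene Ttr made up most of it, at 60.5 FPKM under B[a]P and 3300.2 under corn oil. None of the 16 was listed at 0, though Otx2, singled out after its values were seen, was near it at 0.00692 FPKM under B[a]P and 0.0180 under corn oil. Kl, the klotho gene, was at 0.724 against 23.1 FPKM, the folate receptor gene Folr1 at 1.02 against 24.8 FPKM, and the chloride channel gene Clic6 at 1.06 against 24.1 FPKM. The water channel gene Aqp1 was at 0.596 against 15.7 FPKM, the tight junction gene Cldn2 at 0.403 against 12.3 FPKM, and Tmem72 at 0.224 against 8.97 FPKM. The remaining 5 past 2-fold were Kcnj13, Slc4a5, Sostdc1, Kcne2 and Mfrp, with log2 ratios from -2.85 to -2.37. miR-204 in the miRNA-seq libraries and these genes in the RNA-seq libraries thus differed in opposite directions as labelled, and in the same direction if the labels of one assay were exchanged. In bulk tissue fewer cells of a type and less RNA per cell cannot be told apart. The labels do not say how much choroid plexus was taken with each tissue sample. The part of choroid plexus content in the miR-204 and Trpm3 values was not tested.

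Ciliated ependymal cells line the same ventricles. Of 10 of their genes, 5 were above the floor, none had a log2 ratio of 1 or more in size, 4 lay below the median gene and the median log2 ratio was -0.42, which became -0.01 with the floor at 0.1 FPKM. The largest differences were the cilia regulator Foxj1 at 1.94 FPKM under B[a]P and 4.77 under corn oil (a plain ratio of 0.408 and a log2 ratio of -0.97), Rsph1 of the radial spoke at 1.06 against 2.10 FPKM, and the dynein light chain gene Dynlrb2 at 3.53 against 5.07 FPKM. The summed level of the list was 22.6 FPKM under B[a]P and 28.5 under corn oil.

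Genes of pigment cells, melanocytes known for miR-211 and pigment epithelium known for miR-204, were mixed in level. Of 12 melanocyte and pigment epithelium genes, 11 were listed and 4 were above the floor, none past 2-fold, with a median log2 ratio of 0.07. The defining melanin enzyme genes, named after their values were seen, were near 0. Tyr stood at 0.0491 FPKM under B[a]P and 0.0499 under corn oil, Dct at 0.0693 against 0.0747 FPKM, and Tyrp1 was listed at 0 under B[a]P and at 0.0486 FPKM under corn oil. Mlana, of the melanosome, was likewise listed at 0 under B[a]P. The largest differences above the floor were Mitf, which encodes the factor that drives miR-211 in melanocytes, at 1.54 against 2.18 FPKM, Pmel, a melanosome matrix gene, at 1.28 against 1.01 FPKM, and Best1, an anion channel gene of pigment epithelium, at 34.3 against 30.5 FPKM. Rlbp1, a retinoid carrier gene also named after its values were seen, was at 5.25 against 5.34 FPKM. Rpe65 and Lrat of the same list, likewise chosen after their values were seen, were under the floor. Rpe65 was at 0.648 FPKM under B[a]P and 0.657 under corn oil, and Lrat at 0.0256 against 0.0583 FPKM. The list summed to 43.2 FPKM under B[a]P and 40.0 under corn oil, most of it Best1.

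Cell types of the hippocampus itself differed by small amounts. The median log2 ratio was 0.21 for 9 pan-neuronal genes above the floor, 0.26 for 5 genes of dentate granule cells, 0.19 for 10 astrocyte genes and -0.14 for 10 oligodendrocyte genes, with none past 2-fold. The granule cell median was 0.13 with the floor at 0.1 FPKM. Above and below the median gene lay 8 and 1 pan-neuronal genes, 3 and 2 granule cell genes, and 8 and 2 astrocyte genes. The largest neuronal differences were the microtubule gene Map2 at 151.1 FPKM under B[a]P and 110.7 under corn oil, the synaptic fusion gene Snap25 at 306 against 250.1 FPKM, and the tubulin gene Tubb3 at 197 against 165 FPKM. Among granule cell genes they were Sema5a at 17.5 against 13.2 FPKM, the homeobox gene Prox1 at 10.5 against 8.15 FPKM, and the calcium buffer gene Calb1 at 43.9 against 36.6 FPKM. Among astrocyte genes they were both glutamate transporters, Slc1a2 with 291 FPKM under B[a]P and 219 under corn oil and Slc1a3 with 159.9 against 125.7, and the filament gene Gfap with 224 against 172. Lower were the granule cell gene Pdzd2, at 3.99 against 4.68 FPKM, and the astrocyte gene S100b, at 289 against 319 FPKM. Both were chosen after their values were seen. Of the 10 oligodendrocyte genes, 9 lay below the median gene and 1, Opalin, above it. The myelin gene Mal was at 105 against 144 FPKM and Mag, which encodes a myelin adhesion protein, at 38.0 against 46.0 FPKM, while Opalin was at 13.6 against 10.3 FPKM. Trpm3, at a log2 ratio of -0.21, lay below the medians of the neuronal, granule cell and astrocyte lists and near that of oligodendrocytes.

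Genes reported as targets of miR-204 or miR-211 in other cells, mostly human or mouse, lay on both sides of the median gene. All 22 of the list were in the table and 17 were above the floor, which leaves out Meis1, Runx2, Snai2, Creb5 and Hmga2. None passed 2-fold in either direction, against 0.671% of all genes. Their median log2 ratio was 0.10, beside 0.09 for all genes, with 7 below the median gene and 10 above it, in a range from -0.46 to 0.25. Whether they pair with miR-204 in rat hippocampus was not tested.

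Among the targets, the largest differences were Tgfbr2, a receptor gene of transforming growth factor beta, at 2.51 FPKM under B[a]P and 3.83 under corn oil, and Ezr, which encodes the membrane linker ezrin, at 16.1 against 21.5 FPKM. The third was Kcnma1, of the large-conductance calcium-activated potassium channel, which was higher at 18.1 FPKM under B[a]P against 15.04 under corn oil. Trpm3 is itself on the list, from reports in human kidney tumour cells. Some others with known roles in hippocampal neurons, chosen after their values were seen, were higher as well. Ntrk2, the receptor gene of brain-derived neurotrophic factor, was at 25.6 FPKM under B[a]P and 21.5 under corn oil. Ephb2, a synaptic ephrin receptor gene, was at 1.77 against 1.46 FPKM, and the homeobox gene Meis2 at 4.38 against 3.58 FPKM. Further targets, also chosen after their values were seen, were lower, Sox4 at 4.38 against 5.12 FPKM and Ap1s2 at 3.35 against 3.67 FPKM. Of the 17 targets above the floor, 10 lay above the median gene and 7 below it.

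**Figure D5:**
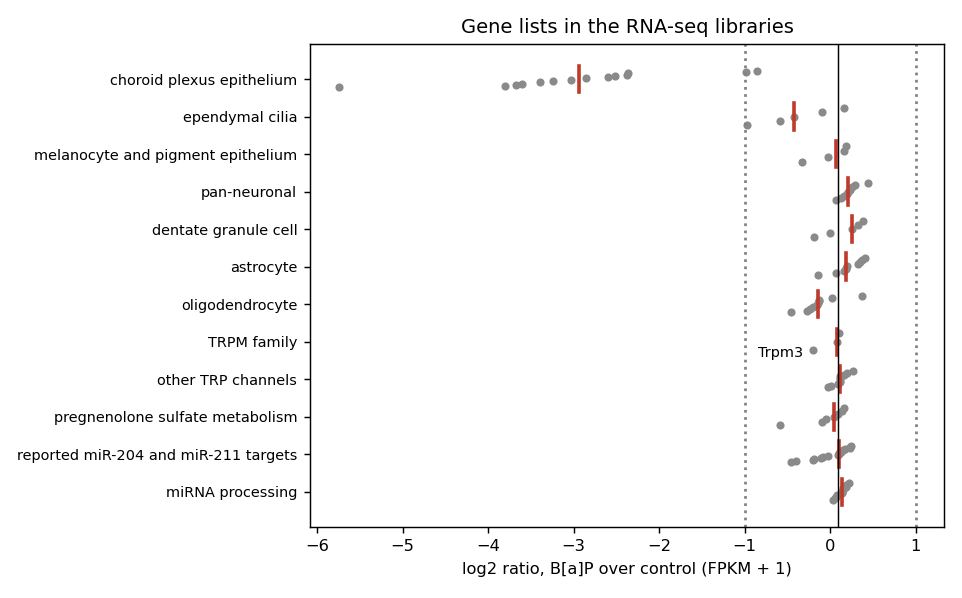
Log2 ratio of the B[a]P over the control library (FPKM + 1) for each gene above the 1 FPKM floor in 12 lists, with a bar at each list's median, a solid line at the median of all genes, 0.09, and dotted lines at 2-fold. The median of the choroid plexus genes, -2.94, stands far below those of all other lists, and the reported targets of miR-204 and miR-211 centre on 0.10.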

How the data were processed

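The authors deposited RPM values in the miRNA tables, and values taken as FPKM in the mRNA tables. No label states the FPKM unit. Of 3143 symbols above 0 and under 0.05 FPKM in both libraries, 80.9% had ratios on those of whole numbers up to 6 times 1 constant, within 0.001 on the natural log scale. That constant, 1.06, is the relative depth of the control over the B[a]P library. Named per the submitters' processing notes, without their roles, are bcl2fastq and 2 builds, rn6 and rn5. For aligner, counter and annotation, nothing is given in the sources used here. Read numbers were recovered from the RPM steps, all within 0.001 of a whole number, and the mismatches allowed in mapping, unknown here, could shift reads between miR-204-5p and miR-211-5p.

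Samples were grouped by title, with 1 library per group and assay, so no test across samples was run. Ratios of the B[a]P over the control library used pseudocounts of 1 RPM or 1 FPKM, floors of 10 RPM or 1 FPKM in either library, and a size rule of 2-fold, which is a log2 ratio of 1 with the pseudocount. A pseudocount understates the ratios of low features. Ratios without the word log2 are of values with no pseudocount. Read ratios carry exact conditional binomial 95% intervals (scipy 1.17.1), checked on simulated reads. The members, lists and pairs were chosen with earlier results of these data known. Named were all members, the TRPM family, list members past 2-fold or otherwise the 3 largest differences above the floor, host pairs whose miRNA passed 2-fold, the 5 miRNAs nearest in ratio and the neighbours in rank. Genes named outside this rule are marked as chosen after their values were seen. The comparison of pairs that differ by 1 base and of genes next to the hosts, and the arm ratios of other miRNAs, were added after the data were seen. RefSeq sequences matched 690 of 765 miRNA rows. The bisulfite tables were not used here, as their positions are of another build than the annotation.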

Additional observations from a re-analysis of the deposited data

How the results depend on the processing

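No replicate could be left out, and no paired analysis was possible because each group had 1 library per assay. The direction of miR-204-5p and miR-204-3p held under every scaling and pseudocount tried, and both stayed past 2-fold. The log2 ratio of miR-204-5p was 2.45 scaled to all miRNA reads, 2.43 scaled by the median of ratios and 2.36 scaled to miRNA reads without the 10 most abundant. That of miR-204-3p was 2.24 scaled to all miRNA reads, 1.98 by the median of ratios and 1.03 with a pseudocount of 10 RPM, which is near its own level. miR-211-5p, whose alternatives were chosen after seeing the data, ranged from 0.41 with that pseudocount to 1.12 with a pseudocount of 0.1, the only one of its 5 alternatives that passed 2-fold. Trpm3 was at -0.23 with a pseudocount of 0.1 and -0.29 by the median of ratios, and Trpm1 at 0.072 and 0.0051. miRNAs at least 2-fold higher numbered 26 with no floor and 6 with a floor of 100 RPM, against 13. Those at least 2-fold lower numbered 1 with a pseudocount of 0.1, scaled to all miRNA reads, by the median of ratios and with no floor, and 2 without the 10 most abundant, against 0. Genes at least 2-fold higher numbered 53 with a pseudocount of 0.1 and 11 with a floor of 5 FPKM, against 20, and those lower 127 and 36, against 69. Of 12 list medians, 6 lay below the table's median in each of the 3 alternatives too. Scaling the mRNA tables by the median of ratios divided the B[a]P values by 1.07, or 0.10 on the log2 scale. Of the lists' 36 values under alternatives, 17 moved by over 0.05. Neither host is in the lncRNA tables and each has 1 line in the mRNA tables, so those alternatives gave no value. The arm ratio needs no alternative, as both arms scale alike. The depth behind FPKM values is unknown beyond its ratio between libraries.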

Other observations

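Enzymes around pregnenolone sulfate, the steroid that opens TRPM3, were examined as a list of 13 genes, of which 11 were listed and 7 were above the floor. None passed 2-fold, and the median log2 ratio was 0.05, beside 0.09 for all genes. The largest difference was Tspo, a mitochondrial protein gene linked to cholesterol import, at 2.99 FPKM under B[a]P and 4.99 under corn oil. Fdxr, which passes electrons to steroid-making cytochromes, was at 3.81 against 3.30 FPKM, and Papss2, which makes the sulfate donor, at 2.37 against 2.06 FPKM. Chosen after their values were seen, Cyp11a1 and Sts stood as follows. Cyp11a1, the enzyme that makes pregnenolone, was near 0 at 0.0216 FPKM under B[a]P and 0.00681 under corn oil. Sts, the steroid sulfatase gene, was at 3.01 against 2.76 FPKM.

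Genes of miRNA processing, all 11 above the floor, had a median log2 ratio of 0.13, with none past 2-fold. The largest differences were Dicer1, the enzyme that cuts hairpins such as that of miR-204, at 4.75 FPKM under B[a]P and 3.95 under corn oil, the helicase gene Ddx5 at 167 against 146 FPKM, and the hairpin exporter gene Xpo5 at 10.1 against 8.73 FPKM.

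Of the 127 miRNAs with both arms listed, the arm ratio changed most in miR-448, which lies in Htr2c. Its ratio of 5p to 3p reads was 0.0148 in the B[a]P library (95% interval 0.0110 to 0.0195) and 0.0833 in the control library (95% interval 0.0476 to 0.137), the latter on 17 5p reads. These intervals did not overlap, but they cover counting error only. They take no account of miR-448 having been singled out, after its values were seen, as the largest change.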
